A study of Mus musculus with 21 samples.

Results

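The transcripts of mouse zygotes held in mitosis were compared with those of embryos at the 2-cell stage, the 2 stages on either side of the first cleavage. The comparison rests on 5 of the 21 arrays of the series, the 3 arrays titled as zygotes in mitosis and the 2 titled as 2-cell embryos, chosen by title alone. Each array was an Illumina bead array with 24613 probes, hybridised with amplified, biotin-labelled RNA from a pool of 20 embryos. The mitotic zygotes had been arrested with nocodazole, a drug that depolymerises microtubules, and were taken 32 to 34 h after injection of the ovulation hormone hCG. The 2-cell embryos were taken at 48 to 50 h, and exposure to nocodazole is not given for them. Embryos were cultured in KSOM medium. The sources used here do not give the strain, genotype or age of the donor females. Stage, time and exposure to the drug therefore changed together between these groups and cannot be told apart.

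A mouse oocyte fills up with RNA while it grows and then stops transcribing. The zygote lives on that store, which is read and destroyed in a set order, by poly(A) tail shortening among other routes. Transcription from the embryo's own chromosomes starts weakly in the zygote and strongly in the 2-cell embryo, while the RNA of the oocyte is cleared.

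Mitotic arrays A and C differed from each other by an SD of 0.12 on the log2 scale, against 0.28 to 1.48 for pairs of arrays that were not taken as repeats. They were averaged and counted as 1 sample, as were drug control arrays B and C (0.12), which leaves 2 samples in each of the groups compared here. The arrays detected 7887 to 8131 probes in mitotic zygotes and 7259 to 7267 in 2-cell embryos at a detection p below 0.01, with mean signals of 124 to 174 and 96.8 to 118. Between 33.8% and 37.7% of the deposited signals on these 5 arrays lay below 0, so background had been subtracted before deposit by a method the sources do not give, and the lowest levels carry that step. Levels are given as log2 of the background-corrected and quantile-normalised signal, in the order mitotic A, B and C against 2-cell A and B, and differences as 2-cell minus mitotic on the log2 scale with their SE (n = 2 and 2 samples). A gene was called where limma gave an adjusted p below 0.05 (Benjamini-Hochberg over 8527 genes), and "rose" and "fell" are used of called genes only. Where none of the arrays in the dimmer group detected the probe, the change is given as a lower limit in the form "at least N-fold". Family medians use the measured values of such probes as well. A median "at the limits" takes their lower limits instead, or no change where there was none. It is given for some families whose median it reduced. Values are those of a gene's brightest probe, and the other probes are given for each named gene whose difference shrinks by over 1.5 times in the mean of its probes. In no gene whose 5 levels are printed do the levels of the 2 groups overlap. Most of these genes were named for large called differences, which makes overlap unlikely, and the share over all genes was not counted. Nothing in the labels says that the pools were separate collections, so the spread behind the p-values may be technical. The SE and p-values use a spread pooled over the 19 samples of all groups of the series, not that of these samples alone. Pairs of genomeless embryo arrays differed by an SD of 1.48, against 0.28 and 0.29 for mitotic A and B and for B and C and 0.46 for the 2-cell arrays. In pooled embryos a lower share of cells with a transcript and less of it per cell cannot be told apart.

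Of 8527 genes tested, 1182 were called higher in 2-cell embryos (13.9% of the genes tested) and 1177 lower (13.8%). These shares are the background against which each gene family below is read. The changes were large, with a median called difference of 2.30 among the genes that rose and -2.16 among those that fell. Differences of at least 8-fold were measured for 328 genes that rose and 257 that fell, and of at least 16-fold for 127 and 49. The median over all genes was -0.02, and it moved to -0.20 in the authors' deposited mean-scaled values and to -0.21 with median scaling. In these, 38.9% and 37.4% of the called genes were higher, against 50.1% with quantile normalisation. The counts were 697 to 771 higher and 629 to 681 lower when any 1 of the 4 samples was left out, each of which leaves a single sample in 1 group. The arrays lay on 6 chips, and chip 4 held mitotic B and C with both 2-cell arrays. With the chip as a block, where the averaged pair counted with chip 3, that of mitotic A, 1105 genes were higher and 1138 lower, and within chip 4, on its 4 arrays alone, 2233 and 2575.

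**Figure D1:**
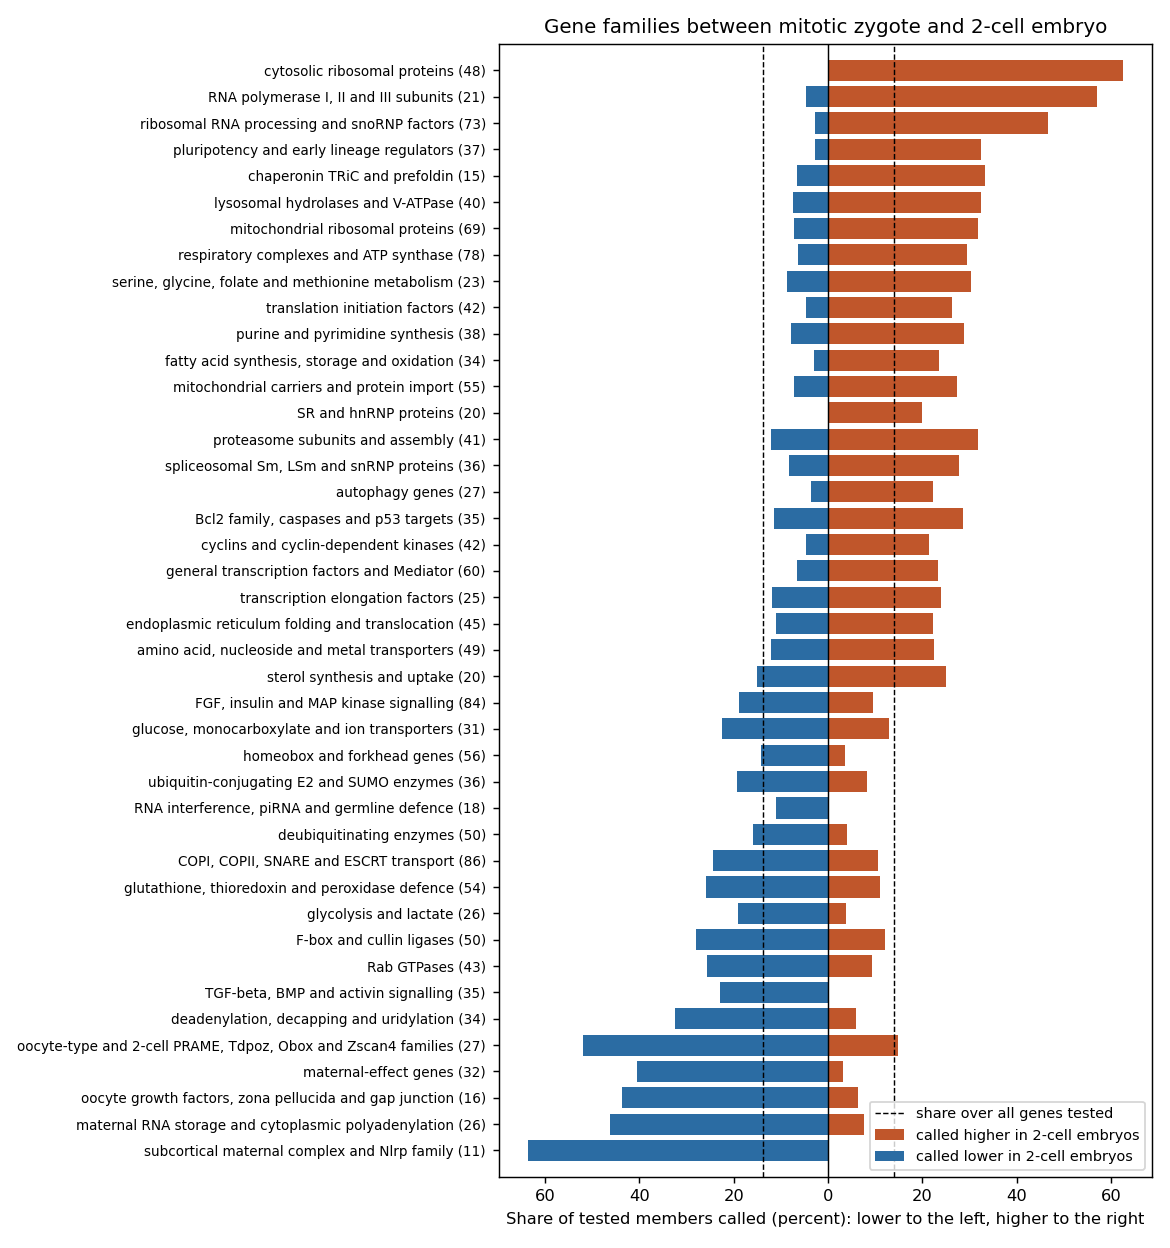
Share of tested members called higher (right, percent) and called lower (left, percent) in 2-cell embryos for the 42 gene lists with the largest distance between both shares, with the number of members tested in brackets. Dashed lines mark the shares over all 8527 genes, 13.9% higher and 13.8% lower. Cytosolic ribosomal proteins lie farthest right among them and the subcortical maternal complex list farthest left.

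Most but not all marker genes moved with the labelled stages. Of 7 oocyte markers tested 5 fell, and of 5 markers of the 2-cell stage 3 rose. The oocyte growth factor gene Gdf9 stood at 13.85, 13.61 and 13.72 against 12.45 and 12.12, a fall that was called (-1.41 ± 0.39, adjusted p = 0.0153), and its level stayed high in 2-cell embryos. Members of the subcortical maternal complex, a protein lattice of the egg cortex, also fell. Ooep was at 14.26, 14.17 and 14.26 against 10.34 and 10.61 (-3.74 ± 0.51, adjusted p = 0.000119), Padi6 changed by -2.76 ± 0.37, adjusted p = 0.000116 and Nlrp5 by -3.56 ± 0.59, adjusted p = 0.000508. Among genes that 2-cell embryos are known to switch on, Pramel7 was at 6.15, 6.12 and 6.18 against 11.92 and 11.76 and rose at least 41.3-fold, adjusted p = 4.97e-08. Zfp352 was not called (0.56 ± 0.55, adjusted p = 0.513). Klf17, another 2-cell marker, was at 13.08, 13.25 and 12.93 against 11.38 and 11.72, lower in measured level and not called (-1.58 ± 0.85, adjusted p = 0.192). The zona pellucida genes Zp1 (-1.93 ± 0.77, adjusted p = 0.0755) and Zp3 (-0.10 ± 0.54, adjusted p = 0.932) were not called either. Markers of other cells were mostly below background. Of 20 cumulus and granulosa cell markers on the array, 0 to 3 were detected on any of the 5 arrays, and Inha, Has2, Ptx3, Cyp11a1, Star and Foxl2 were above background on none. In that list Nr5a1 was detected on 4 arrays, Hsd3b1, Gja1 and Amhr2 on 2 each and Fshr on 1. The summed level of that list was 396 to 420 in mitotic zygotes and 6275 and 6459 in 2-cell embryos. This rise came from Gja1 and Amhr2, which are described below. The sperm and testis list of 18 genes had 2 to 4 members detected and summed to 1361 to 1469 against 735 and 750. The 16 blood, fibroblast and endothelial markers had 1 or 2 detected and summed to 384 to 412 against 324 and 359, and neither leucocyte Ptprc nor collagen Col1a1 was above background. Pecam1 of that list was detected on 4 of the 5 arrays, and Hba-a1, Vim and Tek on 1 each.

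Below the largest changes, the next 10 genes in each direction came from many different functions. The gene ranked seventh among those that rose was Gja1, which encodes the gap junction protein connexin 43. Its levels were 6.0, 6.14 and 6.06 against 12.08 and 12.09, at background on all mitotic arrays and far above it on both 2-cell arrays, and it rose at least 49.1-fold, adjusted p = 3.89e-07. Selenos, an endoplasmic reticulum selenoprotein gene, was at 6.39, 6.54 and 6.39 against 12.50 and 12.34 (5.96 ± 0.31, adjusted p = 4.97e-08). Riox1, a histone and ribosome hydroxylase gene, was at 6.52, 6.25 and 6.54 against 12.37 and 12.33 (5.96 ± 0.73, adjusted p = 4.81e-05). In each of these genes the lowest 2-cell level lay more than 5 log2 units above the highest mitotic level. The lysosomal dipeptidyl peptidase Ctsc rose at least 56.2-fold, adjusted p = 2.31e-06, on the brighter of 2 probes and by 2.01 on the other. The histone gene H2ac12 (5.76 ± 1.02, adjusted p = 0.000887) and the ubiquitin ligase adaptor gene Zc3hc1 (5.61 ± 0.55, adjusted p = 8.87e-06) completed the functions outside translation and nucleotide supply, where Rps27, Aprt and Prps1 belong.

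The 10 genes ranked seventh to sixteenth among those that fell were as mixed. Psenen, a subunit of the γ-secretase protease, was at 13.01, 12.82 and 13.18 against 7.46 and 8.47, and the 2-cell arrays differed from each other by about a log2 unit (-4.99 ± 1.05, adjusted p = 0.00289). The receptor gene Gpr1 was at 11.33, 11.09 and 11.38 against 6.64 and 5.97 (-4.92 ± 0.43, adjusted p = 4.32e-06) and the scaffold gene Pdzk1 at 11.56, 11.82 and 11.60 against 6.76 and 7.01 (-4.82 ± 0.65, adjusted p = 0.000121). The 2-cell levels of Gpr1 and Pdzk1 lay closer together than those of Psenen. Nsdhl, which acts late in cholesterol synthesis, changed by -4.77 ± 0.80, adjusted p = 0.000597, with the other probe at -0.91. The kelch domain gene Klhdc3 changed by -4.87 ± 1.03, adjusted p = 0.00289. Expression of Zfp750 (at least 17.8-fold, adjusted p = 0.000187), the phospholipase gene Pla2g4c (at least 20.1-fold, adjusted p = 4.91e-06) and the membrane skeleton gene Epb41l3 (at least 20-fold, adjusted p = 0.00316) was above background on all 3 mitotic arrays and on no 2-cell array.

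**Figure D2:**
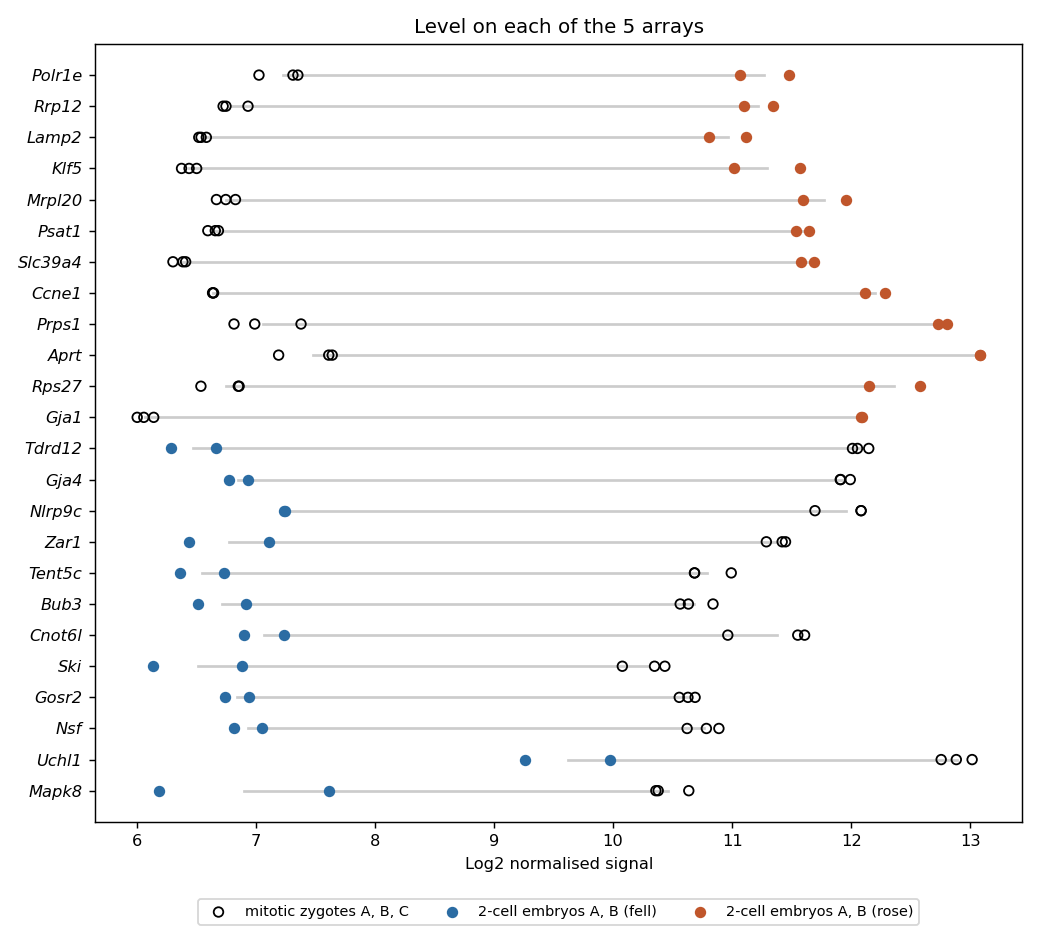
Log2 level on each of the 5 arrays for 24 named genes, 12 that rose and 12 that fell (open circles, mitotic zygotes A, B and C; filled circles, 2-cell embryos A and B). Each gene is shown with its own probe, so levels are compared along a line and not between lines. Mitotic and 2-cell arrays do not overlap in any of the 24, which were picked from genes with large called differences.

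The ribosome was the most uniform of the families that rose. Among cytosolic ribosomal proteins, 30 of 48 tested members rose and 0 fell (median log2 difference 2.75), and 44 of the 48 measured differences lay above 0. The median level of the family was 8.35, 8.12 and 8.26 against 11.82 and 12.34, so both 2-cell arrays stood above all mitotic arrays. Counts of members that rose were 21 to 26 when any 1 sample was left out. Rps27, a small subunit gene, was at 6.85, 6.54 and 6.86 against 12.15 and 12.57 (5.66 ± 0.87, adjusted p = 0.000325). The large subunit genes Rpl13 (7.30, 7.42 and 7.22 against 12.64 and 12.97; 5.47 ± 0.60, adjusted p = 1.96e-05), Rpl10a (4.73 ± 0.63, adjusted p = 0.000111) and Rpl35a (4.62 ± 0.69, adjusted p = 0.000262) followed. Many ribosomal protein genes have processed pseudogenes of almost the same sequence, and whether the probes read these as well was not tested.

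Assembly of new ribosomes needs RNA polymerase I, which transcribes the ribosomal RNA, and a large set of nucleolar factors that cut and modify it. Of the rRNA processing and snoRNP factors, 34 of 73 tested members rose and 2 fell (median log2 difference 1.44), with 23 to 25 that rose when any 1 sample was left out. Rrp12, a factor of ribosomal subunit export, was at 6.73, 6.93 and 6.75 against 11.10 and 11.34 (4.38 ± 0.40, adjusted p = 5.43e-06). Nop9 (4.33 ± 0.43, adjusted p = 1.04e-05), the helicase Ddx54 (4.12 ± 0.96, adjusted p = 0.00539) and fibrillarin, Fbl, the methyltransferase of box C/D snoRNPs (3.79 ± 0.68, adjusted p = 0.000974), rose with it. Nucleolin, Ncl, rose at least 15.2-fold, adjusted p = 7.87e-06. The 2 members that fell were Riok1 and Efl1 (-2.23 and -1.94), a late 40S kinase and a 60S maturation GTPase, and they were chosen for naming after their values were seen. Of the RNA polymerase subunits, 12 of 21 tested members rose and 1 fell (median log2 difference 1.63). The polymerase I subunits Polr1e (7.35, 7.03 and 7.31 against 11.06 and 11.48; 4.09 ± 0.51, adjusted p = 5.68e-05), Polr1c, which polymerase III shares (3.97 ± 0.60, adjusted p = 0.000282), and Polr1a (3.03 ± 0.58, adjusted p = 0.00145) were among the 5 largest rises. The others were Polr2h (3.34 ± 0.47, adjusted p = 0.000174) and Polr2k (3.16 ± 0.80, adjusted p = 0.00932), both used by all 3 nuclear polymerases. With any 1 sample left out, 5 to 8 subunits rose.

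Translation factors rose in part. Among initiation factors 11 of 42 tested members rose and 2 fell (median log2 difference 1.07, or 0.52 with median scaling). Eif4ebp1, the repressor of cap binding that growth signals switch off, was at 7.19, 7.34 and 7.21 against 11.37 and 11.68 (4.26 ± 0.58, adjusted p = 0.000121). Eif3c, a subunit of the factor that bridges mRNA and the small subunit, rose at least 6.6-fold, adjusted p = 0.00195, Eif3l by 2.53 ± 0.34, adjusted p = 0.00011 and Eif4h by 2.69 ± 0.68, adjusted p = 0.0089. Among elongation and release factors 3 of 21 tested members rose and 4 fell (median log2 difference -0.15, or -0.57 with median scaling, and 1 higher and 1 to 2 lower with 1 sample left out), and the release factor gene Gspt2 fell (-2.68 ± 0.92, adjusted p = 0.0422). The aminoacyl-tRNA synthetases, which charge tRNAs with amino acids, split likewise, with 5 of 24 higher and 3 lower. Alanyl Aars rose (2.31 ± 0.56, adjusted p = 0.00727) while seryl Sars (-3.0 ± 0.62, adjusted p = 0.0024, with the other probe at -0.29) and asparaginyl Nars (-2.61 ± 0.70, adjusted p = 0.0123) fell. Mitochondria have ribosomes of their own, and 22 of 69 tested members rose and 5 fell (median log2 difference 0.82, or 0.30 with median scaling) among their protein subunits. Mrpl20 was at 6.75, 6.67 and 6.83 against 11.59 and 11.95 (5.05 ± 0.61, adjusted p = 4.61e-05), while Mrps27 fell (-3.57 ± 0.56, adjusted p = 0.00038). With any 1 sample left out, 8 to 9 initiation factors and 10 to 12 mitochondrial ribosomal genes rose.

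The basal transcription and splicing machinery rose in part. Of the general transcription factors and Mediator subunits, 14 of 60 tested members rose and 4 fell (median log2 difference 0.38, or 0.06 with median scaling, and 7 to 8 higher and 0 to 2 lower with 1 sample left out), among them Gtf2i (3.92 ± 1.11, adjusted p = 0.0174), Gtf3c6 of the polymerase III factor TFIIIC (3.08 ± 0.62, adjusted p = 0.00205) and the Mediator kinase Cdk19 (at least 8.17-fold, adjusted p = 0.00172), while Mediator subunit Med30 fell (-2.89 ± 0.69, adjusted p = 0.00638). Elongation factor genes counted 6 of 25 tested members higher and 3 lower (median log2 difference 0.37, or 0.19 with median scaling). At the limits their median was 0.10. Ccnt1, the cyclin of the kinase that releases paused polymerase II, was at 6.80, 7.02 and 6.69 against 11.87 and 11 (4.56 ± 0.66, adjusted p = 0.00019, with the other probe at 1.0). Among spliceosomal Sm, LSm and snRNP proteins 10 of 36 tested members rose and 3 fell (median log2 difference 0.32, or -0.14 with median scaling). The Sm core genes Snrpd2 (4.80 ± 0.81, adjusted p = 0.000597) and Snrpb (4.61 ± 0.69, adjusted p = 0.000265, with its 3 probes at 0.22 to 4.61) and the SF3b subunit Sf3b5 (3.37 ± 0.73, adjusted p = 0.0034) led them. One of its 3 falling members, Lsm14b, is not a splicing factor but an oocyte RNA storage protein of the same fold family (-2.56 on 1 probe and -0.45 on the other, chosen for naming after its value was seen). Nuclear pore, lamina and importin genes had 11 of 58 higher and 6 lower. The Ran GTPase activating protein Rangap1 (4.18 ± 0.67, adjusted p = 0.000416, with the other probe at 0.07) and the lamin B receptor Lbr (4.16 ± 1.07, adjusted p = 0.00983) rose.

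Protein turnover genes moved in both directions. The proteasome, which degrades ubiquitin-tagged proteins, had 13 of 41 tested members higher and 5 lower (median log2 difference 0.56, or 0.08 with median scaling), with 9 to 10 higher when any 1 sample was left out. Its catalytic subunit Psmb5 was at 6.56, 6.70 and 6.52 against 10.82 and 10.78 (4.18 ± 0.34, adjusted p = 2.36e-06), and the lid subunits Psmd14 (3.75 ± 0.62, adjusted p = 0.000513) and Psmd7 (3.68 ± 0.47, adjusted p = 7.01e-05) rose. Psmc3ip (3.88 ± 0.57, adjusted p = 0.000206) was matched to this list by name only and acts in meiotic recombination. The lists of genes that place or remove ubiquitin held more falling than rising members. Of F-box and cullin genes, which choose the targets, 6 of 50 tested members rose and 14 fell (median log2 difference -0.27, or -0.65 with median scaling), and 6 to 9 fell when any 1 sample was left out. Skp1, the adaptor common to F-box ligases, was at 12.44, 11.95 and 12.73 against 9.32 and 9.15 (-3.04 ± 0.47, adjusted p = 0.000349) and the scaffold Cul3, of another ligase class, at 8.21, 8.33 and 8.17 against 11.63 and 11.47 (3.30 ± 0.35, adjusted p = 1.46e-05). Fbxo6, which binds misfolded glycoproteins, rose at least 24.8-fold, adjusted p = 4.85e-05. Among E2 and SUMO enzymes 3 of 36 tested members rose and 7 fell (median log2 difference -0.24, or -0.57 with median scaling, and 2 to 3 higher and 4 to 5 lower with 1 sample left out), and Ube2a fell at least 7.93-fold, adjusted p = 0.00203. Deubiquitinating enzymes counted 2 of 50 higher and 8 lower (1 to 2 and 3 with 1 sample left out), led by Usp3 (-3.76 ± 0.65, adjusted p = 0.000716) and the egg-abundant Uchl1 (13.02, 12.76 and 12.88 against 9.26 and 9.98; -3.23 ± 0.57, adjusted p = 0.0008).

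Lysosomal genes held a larger share of rising members (32.5%) than all genes tested (13.9%). The lysosomal hydrolases and V-ATPase subunits had 13 of 40 tested members higher and 3 lower (median log2 difference 0.84, or 0.38 with median scaling), and 10 to 11 rose with any 1 sample left out. Lamp2, a lysosomal membrane protein gene, was at 6.52, 6.58 and 6.54 against 10.81 and 11.12 (4.40 ± 0.63, adjusted p = 0.000181). Psap, the precursor of the saposins that help degrade sphingolipids, was at 6.37, 6.51 and 6.37 against 10.86 and 10.52 (4.24 ± 0.67, adjusted p = 0.000388). The tetraspanin Cd63 rose at least 66.2-fold, adjusted p = 0.000427. Atp6v1b2, a subunit of the proton pump that acidifies the lysosome, went the other way (-3.31 ± 0.44, adjusted p = 0.000112). Of 15 chaperonin TRiC and prefoldin genes, 5 rose and 1 fell. Tcp1 (2.64 ± 0.66, adjusted p = 0.00869), Cct4 (2.98 ± 0.54, adjusted p = 0.00102) and the prefoldin Pfdn6 (4.31 ± 0.58, adjusted p = 0.000121) rose and Pfdn4 fell (-3.43 ± 0.48, adjusted p = 0.000162). In the endoplasmic reticulum, where 10 of 45 folding and translocation genes rose and 5 fell (5 to 7 and 0 to 2 with 1 sample left out), the median difference was -0.16 and turned to 0.04 without 2-cell sample A. There the disulfide isomerase P4hb was at 8.09, 7.82 and 8.02 against 12.27 and 12.21 (4.30 ± 0.81, adjusted p = 0.00131). Heat shock proteins and their co-chaperones were close to the background, with 9 of 55 higher and 5 lower. Bag1 (3.78 ± 0.71, adjusted p = 0.00134) and Bag5 (3.65 ± 0.52, adjusted p = 0.000183) rose, Bag4 (-3.19 ± 0.60, adjusted p = 0.00131) fell, and Dnajb4 fell at least 11.8-fold, adjusted p = 0.000265.

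Nucleotide synthesis supplied some of the largest rises outside translation. Of the purine and pyrimidine genes, 11 of 38 tested members rose and 3 fell (median log2 difference 0.63, or 0.21 with median scaling), and 8 rose with any 1 sample left out. Aprt, which salvages adenine, was at 7.64, 7.19 and 7.61 against 13.08 and 13.08 (5.67 ± 0.81, adjusted p = 0.000187). Prps1, which makes the phosphoribosyl donor of both pathways, was at 6.82, 7.38 and 6.99 against 12.73 and 12.81 (5.63 ± 1.14, adjusted p = 0.00218). The nucleoside diphosphate kinases Nme1 (5.12 ± 0.55, adjusted p = 1.73e-05) and Nme2 (4.98 ± 0.72, adjusted p = 0.000194) stood next in size, and their sequences are close enough that the probes may read both. Among genes of serine, glycine, folate and methionine metabolism, 7 of 23 tested members rose and 2 fell (median log2 difference 0.18, or 0.01 with median scaling, and 3 higher and 1 to 2 lower with 1 sample left out). At the limits the median was 0.00, and the measured median turned to -0.28 among genes detected on at least 2 arrays of the groups compared. Psat1, an aminotransferase of serine synthesis, was at 6.69, 6.60 and 6.66 against 11.65 and 11.54 (4.96 ± 0.39, adjusted p = 1.75e-06, with the other probe at 1.64), and the folate receptor Folr1 rose at least 13.1-fold, adjusted p = 0.00235.

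Lists of the respiratory chain and of mitochondrial carriers held more rising than falling members. In the glycolysis list the share of falling members (19.2%) was near that over all genes (13.8%), and the share of rising ones was below it (3.85% against 13.9%). Of the respiratory complexes and ATP synthase, 23 of 78 tested members rose and 5 fell (median log2 difference 0.91, or 0.52 with median scaling), with 13 to 16 higher when any 1 sample was left out. Cox17, a copper chaperone of cytochrome c oxidase, was at 7.08, 7.0 and 7.13 against 10.28 and 10.25 (3.21 ± 0.68, adjusted p = 0.003), Cox7c rose at least 17.7-fold, adjusted p = 0.000985, and Ndufaf1, an assembly factor of complex I, rose at least 14.3-fold, adjusted p = 0.000552. Another complex I assembly factor, Ndufaf4, fell (-3.44 ± 0.61, adjusted p = 0.000924). The carriers and import machinery of mitochondria had 15 of 55 tested members higher and 4 lower (median log2 difference 0.38, or 0.09 with median scaling, and 9 to 10 higher and 1 to 3 lower with 1 sample left out). Among them the import genes Timm10 (7.16, 7.12 and 7.13 against 11.22 and 11.10; 4.02 ± 0.47, adjusted p = 3.31e-05) and Tomm22 (3.10 ± 0.49, adjusted p = 0.000395) rose. In the citric acid cycle 4 of 22 genes rose (18.2%) and 5 fell (22.7%). Malate dehydrogenase Mdh2 was higher (3.69 ± 0.82, adjusted p = 0.0041), and citrate synthase Cs (-3.64 ± 0.85, adjusted p = 0.00549) and the oxoglutarate dehydrogenase subunit Dlst (-3.46 ± 0.79, adjusted p = 0.00478) were lower. Glycolysis and lactate genes had 1 of 26 higher and 5 lower. Triosephosphate isomerase Tpi1 was at 11.43, 11.57 and 11.38 against 8.03 and 8.37 (-3.29 ± 0.59, adjusted p = 0.000986), lactate dehydrogenase Ldhb at 13.82, 13.55 and 13.52 against 10.68 and 10.61 (-2.96 ± 0.55, adjusted p = 0.00117) and pyruvate kinase Pkm at 11.97, 11.73 and 11.87 against 9.37 and 8.74 (-2.77 ± 0.77, adjusted p = 0.015). The gene that rose was the glucose transporter Slc2a3 (at least 5.58-fold, adjusted p = 0.00117), whereas its relative Slc2a1 fell at least 4.17-fold, adjusted p = 0.0203. The median of the glycolysis list was -0.09.

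Lipid and redox genes were divided. In fatty acid metabolism 8 of 34 tested members rose and 1 fell (median log2 difference 0.42, or 0.02 with median scaling, and 4 to 5 higher and 0 lower with 1 sample left out). At the limits the median of this list was 0.23. The elongase Elovl6 rose at least 8.18-fold, adjusted p = 0.00144, and Eci1, an isomerase of fatty acid oxidation, was at 7.01, 6.78 and 7.08 against 10.35 and 10.48 (3.51 ± 0.58, adjusted p = 0.000508). Sterol synthesis had 5 of 20 genes higher and 3 lower (1 to 2 and 3 with 1 sample left out). The median difference was -0.06, from -0.26 without 2-cell sample B to 0.12 without 2-cell sample A. The isomerase Ebp (3.18 ± 0.46, adjusted p = 0.000193) and the prenyl synthase Fdps (2.37 ± 0.75, adjusted p = 0.0301) rose while Nsdhl and Insig1, a brake on sterol synthesis (-2.38 ± 0.51, adjusted p = 0.00323), fell. In glutathione, thioredoxin and peroxidase defence 6 of 54 tested members rose and 14 fell (median log2 difference -0.34, or -0.57 with median scaling), and 10 fell with any 1 sample left out. At the limits the median of this list was -0.13. Gstm5, a glutathione transferase, was at 10.19, 10.31 and 10.43 against 6.36 and 6.99 (-3.64 ± 0.52, adjusted p = 0.00019). Txndc2, a thioredoxin gene best known from sperm, was at 10.66, 10.61 and 10.74 against 7.48 and 6.90 (-3.47 ± 0.60, adjusted p = 0.000724). Prdx4, the peroxiredoxin of the secretory pathway, moved the other way, at 6.35, 6.77 and 6.42 against 11.64 and 12.02 (5.25 ± 0.29, adjusted p = 7.13e-08).

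The machinery that stores and destroys maternal RNA was itself among the falling transcripts. Of the storage and cytoplasmic polyadenylation genes, 2 of 26 tested members rose and 12 fell (median log2 difference -1.44), and 7 to 8 fell with any 1 sample left out. Zar1, which binds stored mRNAs in the oocyte, was at 11.45, 11.29 and 11.42 against 6.44 and 7.11 (-4.59 ± 0.86, adjusted p = 0.00128). The poly(A) polymerases Tent5c (10.68, 10.99 and 10.68 against 6.36 and 6.73; -4.29 ± 0.81, adjusted p = 0.0014) and Tent5b (-4.06 ± 0.60, adjusted p = 0.000236) and the double-stranded RNA binding protein Stau2 (-3.29 ± 0.93, adjusted p = 0.0166) fell too, and Dazl, a germ cell translation regulator, fell at least 5.05-fold, adjusted p = 0.00234. Among deadenylation, decapping and uridylation genes, 2 of 34 tested members rose and 11 fell (median log2 difference -1.02), and 5 to 8 fell with any 1 sample left out. Cnot6l, a catalytic subunit of the CCR4-NOT deadenylase, was at 11.61, 10.96 and 11.55 against 6.90 and 7.23 (-4.20 ± 0.50, adjusted p = 4.28e-05), and Cnot7, another catalytic subunit, at 12.34, 12.43 and 12.26 against 9.50 and 8.86 (-3.18 ± 0.44, adjusted p = 0.000135). The deadenylase family genes Noct (-3.44 ± 0.73, adjusted p = 0.00295) and Parn (-2.90 ± 0.61, adjusted p = 0.00285) were lower as well. The nuclear exosome list, whose core complex degrades RNA from its 3′ end, had 3 of 19 genes higher and 3 lower. Its subunits Exosc5 (2.81 ± 0.81, adjusted p = 0.0194) and Exosc6 (2.77 ± 0.57, adjusted p = 0.0024, with the other probe at 0.61) rose and Zcchc8 of its nuclear targeting complex fell (-4.56 ± 0.89, adjusted p = 0.00173).

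Among the 69 lists, the subcortical maternal complex and Nlrp list held the largest share of falling members (63.6%). The list of PRAME, Oas1, Obox and related families came next (51.9%), and it was written to hold genes of the 2-cell stage as well as egg genes. The subcortical maternal complex and Nlrp list had 0 of 11 tested members higher and 7 lower (median log2 difference -2.50). Nlrp9c was at 12.08, 11.70 and 12.08 against 7.23 and 7.25 (-4.65 ± 0.50, adjusted p = 1.57e-05), and Zbed3 changed by -2.61 ± 0.87, adjusted p = 0.0371. In the PRAME, Oas1, Obox and related families, 4 of 27 tested members rose and 14 fell (median log2 difference -1.91, and 4 higher and 9 to 12 lower with 1 sample left out). Oas1e was at 12.49, 12.29 and 12.70 against 7.88 and 8.47 (-4.26 ± 0.52, adjusted p = 4.61e-05), Oas1c at 12.85, 12.99 and 12.95 against 7.42 and 7.83 (-5.32 ± 0.63, adjusted p = 3.77e-05) and Pramel34 at 12.97, 13.31 and 12.96 against 8.09 and 7.98 (-5.10 ± 0.35, adjusted p = 6.94e-07). Obox6, a homeobox gene of the same family as the falling Obox1 (-3.78 ± 0.64, adjusted p = 0.000604), rose at least 14.6-fold, adjusted p = 0.000188. Pramel7 and the BTB gene Tdpoz1 (at least 12.5-fold, adjusted p = 0.00371) rose as well. These families hold many close copies, and which copies a probe reads was not tested. Maternal-effect genes, whose loss in the mother stops the embryo, had 1 of 32 tested members higher and 13 lower (median log2 difference -1.38). Zfp57, which protects imprinted methylation, fell at least 15-fold, adjusted p = 9.08e-05. Among oocyte growth factors, zona proteins and gap junctions, 1 of 16 tested members rose and 7 fell (median log2 difference -1.67, and 1 higher and 4 to 6 lower with 1 sample left out), and the oocyte connexin Gja4 was at 11.99, 11.91 and 11.91 against 6.77 and 6.94 (-5.08 ± 0.49, adjusted p = 7.08e-06). Of the small RNA pathway, 2 of 18 genes fell, Tdrd12 (12.05, 12.01 and 12.15 against 6.67 and 6.28; -5.58 ± 1.01, adjusted p = 0.00101) and Piwil1 (at least 6.85-fold, adjusted p = 0.0115), both of the piRNA branch.

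Vesicle traffic was a large family with a shift towards lower levels. Among COPI, COPII, SNARE and ESCRT genes, 9 of 86 tested members rose and 21 fell (median log2 difference -0.61), 60 of the 86 measured differences lay below 0, and 12 to 14 fell with any 1 sample left out. The SNARE gene Gosr2, which acts between endoplasmic reticulum and Golgi, was at 10.56, 10.69 and 10.63 against 6.94 and 6.74 (-3.80 ± 0.41, adjusted p = 1.86e-05, with its 3 probes at -3.80 to -0.11). Nsf, the ATPase that recycles SNARE complexes, was at 10.62, 10.89 and 10.78 against 6.81 and 7.05 (-3.86 ± 0.78, adjusted p = 0.00211). Chmp3, an ESCRT subunit, fell by a similar amount (-3.89 ± 0.71, adjusted p = 0.00112). The 2 largest rises were Vps18, of the tethering complexes that feed the lysosome (at least 16.2-fold, adjusted p = 1.15e-05), and the COPII GTPase Sar1a (3.76 ± 0.63, adjusted p = 0.000592). Rab GTPases, which label vesicles, had 4 of 43 tested members higher and 11 lower (median log2 difference -0.32, or -0.87 with median scaling, and 3 higher and 5 to 6 lower with 1 sample left out). Rab32 (10.94, 10.91 and 10.98 against 6.90 and 7.63; -3.67 ± 1.09, adjusted p = 0.0221) and Rab38 (at least 11-fold, adjusted p = 4.74e-06), both of lysosome-related organelles, and Rab21 (-3.23 ± 0.55, adjusted p = 0.000629) fell, and Rab24 rose at least 4.75-fold, adjusted p = 0.00683.

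Transporters and surface proteins moved in both directions. Among amino acid, nucleoside and metal transporters 11 of 49 tested members rose and 6 fell (median log2 difference 0.18, or -0.02 with median scaling, and 6 to 8 higher and 2 to 3 lower with 1 sample left out). At the limits the median of this list was 0.04. The zinc importer Slc39a4 was at 6.39, 6.30 and 6.41 against 11.58 and 11.69 and rose at least 35.8-fold, adjusted p = 3.31e-05, and the zinc transporter Slc30a6 rose by 3.16 ± 0.60, adjusted p = 0.00145. The creatine transporter Slc6a8 rose at least 5.98-fold, adjusted p = 0.000115, whereas the cystine transporter Slc7a11 fell at least 4.44-fold, adjusted p = 0.0101. In the glucose, monocarboxylate and ion list, 4 of 31 rose and 7 fell, with the vitamin transporter Slc5a6 higher (7.74, 7.55 and 7.70 against 12.70 and 12.86; 5.14 ± 0.40, adjusted p = 1.75e-06) and the bicarbonate transporter Slc4a8 lower (12.50, 12.90 and 12.47 against 7.66 and 8.56; -4.58 ± 0.91, adjusted p = 0.00193, with the other probe at -1.22). Adhesion and junction genes had 5 of 68 higher and 9 lower. Gja1 rose from background while Gja4 fell, and the integrin Itgb5 rose (3.69 ± 0.50, adjusted p = 0.000121). The anti-Müllerian hormone receptor Amhr2, which is on the cumulus marker list with Gja1, was at 6.08, 6.05 and 6.03 against 10.70 and 10.79 and rose at least 19.3-fold, adjusted p = 3.75e-07, with the other probe at 0.23.

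The TGF-β list and the FGF, insulin and MAP kinase list held more falling than rising members. At the limits their median differences were 0.00 and -0.02. In TGF-β, BMP and activin signalling, 0 of 35 tested members rose and 8 fell (median log2 difference -0.15, or -0.34 with median scaling), and 5 to 6 fell with any 1 sample left out. By role, the ligands Bmp15 (13.66, 13.88 and 13.66 against 8.14 and 8.98; -5.21 ± 0.47, adjusted p = 4.91e-06), Tgfb2 (-3.31 ± 0.84, adjusted p = 0.00943) and Tgfb3 (-2.47 ± 0.52, adjusted p = 0.00298), the signal transducer Smad1 (at least 5.03-fold, adjusted p = 0.0115) and the Smad repressor Ski (10.35, 10.08 and 10.44 against 6.14 and 6.89; -3.72 ± 0.58, adjusted p = 0.000369) were lower. In FGF, insulin and MAP kinase signalling, 8 of 84 tested members rose and 16 fell (median log2 difference -0.19, or -0.30 with median scaling, and 6 to 7 higher and 7 to 10 lower with 1 sample left out). The stress kinase Mapk8 was at 10.38, 10.64 and 10.36 against 6.19 and 7.62 (-3.60 ± 0.90, adjusted p = 0.00833), the kinase Map3k6 changed by -3.37 ± 0.83, adjusted p = 0.00774 and the phosphatase Dusp1 by -2.97 ± 0.56, adjusted p = 0.00142. Fgf8, a ligand made by the oocyte, fell at least 5.94-fold, adjusted p = 0.00697, and the kinase Map3k3 rose at least 5.88-fold, adjusted p = 0.00182. Wnt and Hippo genes were near the background, with 5 of 36 higher and 3 lower. Tead4, the Hippo pathway factor needed for trophectoderm, was at 5.99, 6.14 and 5.93 against 9.36 and 9.64 and rose at least 8.16-fold, adjusted p = 8.99e-06, and the Wnt target Axin2 fell (-2.82 ± 0.88, adjusted p = 0.0275). In cyclic AMP and calcium signalling 9 of 73 rose and 12 fell (2 to 3 and 6 to 8 with 1 sample left out), which is near the background. Prkar1a, a regulatory subunit of protein kinase A, fell (-3.18 ± 0.62, adjusted p = 0.00171), as did the calcineurin subunit Ppp3r1 (-3.56 ± 0.80, adjusted p = 0.00426).

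Transcription factors differed by class. Of the pluripotency and early lineage regulators, 12 of 37 tested members rose and 1 fell (median log2 difference 0.28), and 7 to 8 rose with any 1 sample left out. At the limits the median of this list was 0.00. Klf5 was at 6.50, 6.38 and 6.44 against 11.02 and 11.57 (4.87 ± 0.47, adjusted p = 7.87e-06) and Klf2 at 6.72, 6.48 and 6.76 against 10.86 and 10.73 (4.18 ± 0.36, adjusted p = 3.62e-06). Sox21 rose from background in all mitotic arrays, at 5.88, 5.93 and 5.72 against 10.57 and 10.46 (at least 16.5-fold, adjusted p = 7.77e-05, with the other probe at 0.40). Homeobox and forkhead genes had 2 of 56 higher and 8 lower, with the oocyte factor Nobox lower (at least 4.65-fold, adjusted p = 3.11e-05) and Foxa1 higher (at least 4.11-fold, adjusted p = 0.00485). AP-1, ATF, Myc and E2F type factors split evenly, 8 of 55 in each direction. Gabpa, an ETS factor of housekeeping promoters, rose at least 9.1-fold, adjusted p = 0.000138, Bach1 rose (3.41 ± 0.64, adjusted p = 0.00129) and the ETS factor Elk4 fell at least 8.43-fold, adjusted p = 0.0158. Numbered zinc finger genes, the largest family tested, had 25 of 178 higher and 25 lower, which is 14% each way and near the background. Zscan5b (7.5, 7.32 and 7.49 against 12.30 and 12.26; 4.87 ± 0.48, adjusted p = 8.47e-06) and Zfp707 (4.50 ± 0.48, adjusted p = 1.52e-05) rose most among them.

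Apart from the cyclin list and the Bcl2 family list, cell cycle, cytoskeleton and chromatin families lay near the background shares or below them, while single members moved far. The exception was the Polycomb list, with 20.8% called lower. Among the low shares were 5.71% called higher for kinesins and dyneins and 6.12% called lower for DNA replication factors. Of cyclins, their kinases and regulators, 9 of 42 tested members rose and 2 fell (median log2 difference 0.08, or -0.02 with median scaling). The G1/S cyclin Ccne1 was at 6.64, 6.64 and 6.65 against 12.12 and 12.28 (5.56 ± 0.65, adjusted p = 3.32e-05), and Cdk2ap1 at 9.01, 8.59 and 8.95 against 13.56 and 13.33 (4.66 ± 0.51, adjusted p = 1.86e-05). The cyclin-dependent kinase inhibitor Cdkn1a rose by 2.82 ± 0.80, adjusted p = 0.0171. Among Bcl2 family, caspase and p53 target genes 10 of 35 tested members rose and 4 fell (median log2 difference 0.44, or 0.18 with median scaling, and 4 to 6 higher and 2 lower with 1 sample left out). At the limits the median of this list was 0.23. Bcl2l10, an anti-apoptotic gene of the egg, was at 14.10, 13.76 and 14.01 against 10.32 and 10.62 (-3.44 ± 0.64, adjusted p = 0.00125), and caspase 8, Casp8, fell at least 6.82-fold, adjusted p = 1.54e-05. In the anaphase-promoting complex and spindle checkpoint list, 4 of 39 rose and 5 fell, with the checkpoint gene Bub3 at 10.84, 10.63 and 10.56 against 6.51 and 6.92 (-3.95 ± 0.53, adjusted p = 0.000102) and Mad2l2, which also acts in translesion synthesis, higher (2.86 ± 0.75, adjusted p = 0.0112). Kinetochore, cohesin and condensin genes had 5 of 41 higher and 4 lower, DNA replication factors 5 of 49 and 3, repair genes 6 of 74 and 8, tubulin genes 3 of 36 and 5, actin genes 5 of 53 and 8, and kinesins and dyneins 2 of 35 and 4. Chek1, the replication checkpoint kinase, fell at least 8.69-fold, adjusted p = 0.002, and the histone variant gene H2ax rose (3.60 ± 0.91, adjusted p = 0.00915).

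Among chromatin regulators, histone acetylation genes had 6 of 48 higher and 4 lower, histone methylation genes 5 of 42 and 4, Polycomb genes 3 of 24 and 5, and nucleosome remodellers 4 of 41 and 5. The arginine methyltransferase Prmt1 was at 7.30, 8.27 and 7.23 against 11.54 and 11.84 (3.92 ± 1.04, adjusted p = 0.0119), the deacetylase Hdac1 rose (2.61 ± 0.38, adjusted p = 0.000227) and the NuRD subunit Mta2 rose at least 18.1-fold, adjusted p = 8.84e-07. Ruvbl1, an ATPase of the INO80 remodeller, rose (3.47 ± 0.65, adjusted p = 0.00131), while the Polycomb gene Pcgf6 (-3.24 ± 0.64, adjusted p = 0.00193) fell and its relative Pcgf5 (2.90 ± 0.71, adjusted p = 0.0077) rose. Of 30 histone and histone chaperone genes, 3 rose and 2 fell. The falling pair were the egg forms Npm2 (12.67, 13.01 and 12.63 against 9.86 and 9.87; -2.96 ± 0.52, adjusted p = 0.00079), a nucleoplasmin, and H1f8, the oocyte linker histone (-2.30 ± 0.52, adjusted p = 0.00445).

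**Figure D3:**
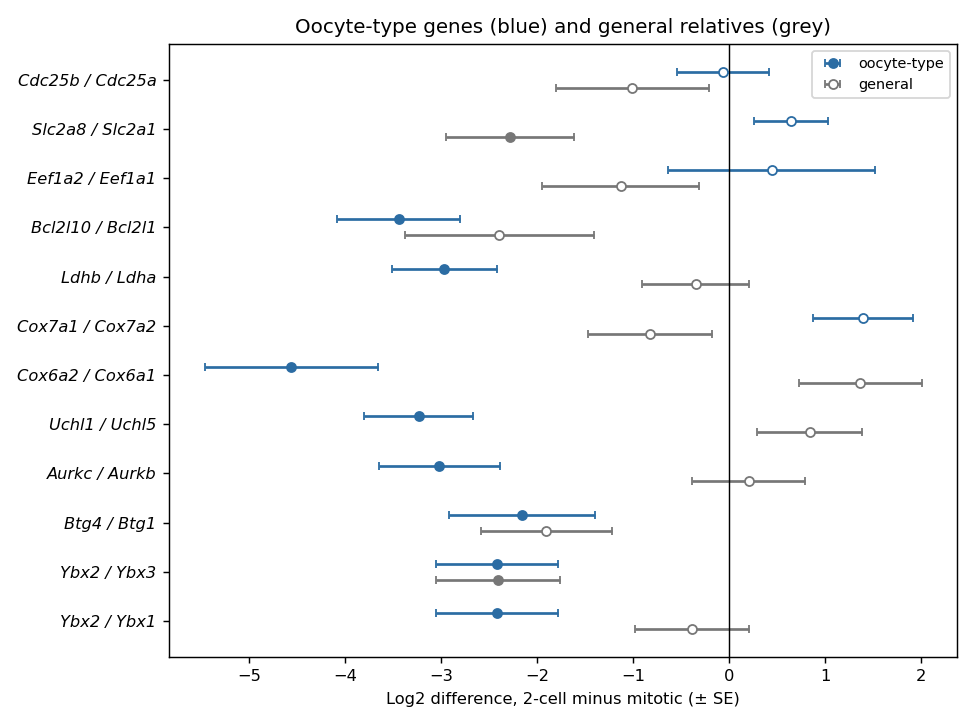
Log2 difference (2-cell minus mitotic) with its SE for oocyte-type genes and their general relatives, for the 12 pairs with both members tested. Filled symbols were called (adjusted p below 0.05) and open symbols were not. Called lower were 7 of the 11 oocyte-type and 2 of the 12 general genes, against 13.8% of all genes tested.

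Pairs of an egg-type gene and a relative used by most cells were set side by side, with 30 pairs written down and both members tested in 12. These hold 11 egg-type genes, of which 7 fell and none rose, and 12 general genes, of which 2 fell and none rose. Over all genes tested 13.8% were lower and 13.9% higher, so the general genes that fell were near the background share. The members were chosen by hand with earlier results of these data known. The Y-box RNA binding protein of the egg, Ybx2, was at 8.70, 9.32 and 8.68 against 6.50 and 6.67 (-2.42 ± 0.64, adjusted p = 0.0113), while the general form Ybx1 was at 13.93, 14.10 and 13.85 against 13.66 and 13.56 and was not called (-0.39 ± 0.60, adjusted p = 0.711). The meiotic Aurora kinase Aurkc was at 12.52, 12.44 and 12.42 against 9.55 and 9.33 and fell (-3.02 ± 0.63, adjusted p = 0.00264), and its mitotic relative Aurkb was not called (0.20 ± 0.59, adjusted p = 0.87). Cox6a2, a subunit form of heart muscle and egg, was at 10.82, 11.27 and 10.96 against 7.04 and 6.01 (-4.56 ± 0.90, adjusted p = 0.00186), and Cox6a1 was not called (1.37 ± 0.64, adjusted p = 0.131). Ldhb fell and Ldha did not pass the test (-0.35 ± 0.56, adjusted p = 0.723), and Bcl2l10 fell while Bcl2l1 did not pass (-2.39 ± 0.98, adjusted p = 0.0854). Whether the members of a pair differed from each other was not tested. Ybx3, a further general Y-box gene, fell (-2.41 ± 0.65, adjusted p = 0.0124), and the deadenylase adaptor Btg4 fell (-2.16 ± 0.76, adjusted p = 0.0471) while Btg1 lay just outside the threshold (-1.90 ± 0.68, adjusted p = 0.0508), on the brighter of 2 probes that differ in sign. The general forms Eef1a1 and Cdc25a and the egg form Cdc25b were not called. In measured level some pairs went the other way. Slc2a8, written as egg-type, was not called (0.65 ± 0.39, adjusted p = 0.247), and the general Slc2a1 fell (-2.28 ± 0.67, adjusted p = 0.0203). Neither Cox7a1, written as egg-type (1.39 ± 0.52, adjusted p = 0.0601), nor Cox7a2 (-0.82 ± 0.65, adjusted p = 0.392) was called. Slc2a8, Cox7a1 and Eef1a2 were detected on no mitotic array, so their levels do not bear out the egg-type label.

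Detection itself gave a second view of the turnover. A probe was detected on both 2-cell arrays and on no mitotic array for 938 genes, and on all mitotic arrays and no 2-cell array for 1350 genes, against 3842 genes detected on all 5 arrays. Of the genes gained, 679 were also detected on all 3 drug control arrays, and 549 on all of these and on no interphase zygote array. Of the genes lost, 1155 were detected on no drug control array, and 658 on all interphase zygote arrays and no drug control array. On the interphase zygote arrays, 750 of the genes gained were detected on none and 804 of the genes lost on all. The same shares over all genes were not counted. The mitotic arrays were the brighter ones and detected more probes, and the part of this in the number of genes lost was not tested. With the limit at a detection p of 0.05 the numbers were 950 and 1351.

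The change was then set beside a comparison that shares no array with it. Interphase zygotes, taken 24 to 28 h after hCG (3 arrays), were compared with drug controls, embryos that had met nocodazole at mitosis and were taken at 48 to 50 h (3 arrays, 2 samples). Here the older embryos had met the drug, while in the main comparison the zygotes had. Of the 8527 genes, 1374 were higher (16.1%) and 1342 lower (15.7%) in drug controls. Among the 1182 genes that rose from mitotic zygote to 2-cell embryo, 1179 (99.7%) had a difference of the same sign and 1021 (86.4%) were also called higher. Among the 1177 genes that fell, 1170 (99.4%) had the same sign and 913 (77.6%) were called lower. In no gene were the calls opposite. No chip held both of these groups, and with the chip as a block (the averaged drug controls counted with chip 4, that of B) 899 genes were higher and 858 lower in drug controls. A test of the difference between the 2 comparisons called none of the 8527 genes (0%) with limma, and 181 genes had an unadjusted p below 0.05. The SE of this difference rests on the spread pooled over all groups and was, for example, 0.66 in Gja4 and 1.42 in Cd63. With SEs of this size sizeable differences can be missed, so the test cannot show that the 2 comparisons changed alike. In interphase A, B and C against drug controls A, B and C, Gja1 stood at 6.59, 6.10 and 6.03 against 12.60, 12.39 and 12.27, Polr1e at 8.31, 8.16 and 7.21 against 11.50, 11.13 and 11.14 and Mrpl20 at 6.81, 6.71 and 6.52 against 11.31, 11.76 and 11.77. Gosr2 stood at 9.55, 11.18 and 10.75 against 6.98, 6.79 and 6.74, Ski at 10.35, 11.22 and 11.28 against 6.69, 6.22 and 6.35 and Cnot6l at 11.11, 10.84 and 10.44 against 7.25, 7.30 and 7.24. The groups do not overlap in any of these 6 genes, which were picked from genes with large called differences in the main comparison. The share of all genes without overlap was not counted. For 4 of the families described above, counts in drug controls are read against 16.1% higher and 15.7% lower over all genes. They were 31 higher and 0 lower of 48 cytosolic ribosomal proteins and 38 and 5 of 73 rRNA processing factors. Vesicle traffic had 8 and 16 of 86 genes, a share of lower genes near that background, and TGF-β signalling 0 and 8 of 35. The median differences were 2.14, 1.40, -0.28 and -0.18 in that order, against 2.75, 1.44, -0.61 and -0.15 in the main comparison.

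**Figure D4:**
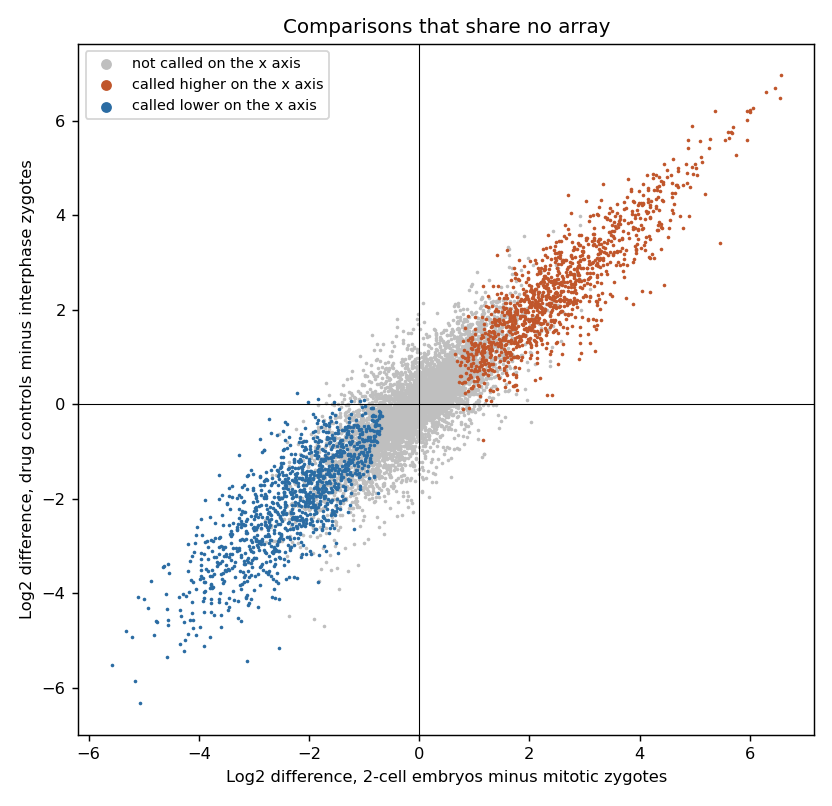
Log2 difference of every tested gene between 2-cell embryos and mitotic zygotes (x axis) and between drug controls and interphase zygotes (y axis), 2 comparisons that share no array. Genes called higher or lower on the x axis are coloured; 99.7% of those that rose and 99.4% of those that fell lie in the quadrant of the same sign.

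Promoters were read for the tested genes that have a single entry in the RefSeq promoter table (GRCm38.p6, 250 bases before to 50 after the start), which gave 5498 of the 8527 genes. Genes that fell by at least 2-fold had fewer CG dinucleotides. A count of 10 or more CG was found in 88.3% of the 785 promoters of genes that rose, 78.5% of the 674 of genes that fell, 82.2% of all tested genes and 43.5% of all 32851 promoters in the table. These are shares with no test. The lowest medians were those of the 2 lists with the largest shares of falling members. The median CG count was 2.00 in the 21 promoters of the PRAME, Oas1 and Obox list, also 2.00 in the 7 of the subcortical maternal complex list and 20.5 in the 30 of cytosolic ribosomal proteins. Pramel7, which rose, has as few as its falling relatives. The sequences of a ribosomal protein gene, an oocyte growth factor gene and Pramel7 are shown 5′ to 3′ to make this visible, with each CG in capitals, 22 in Rps27, 2 in Bmp15 and 1 in Pramel7.
Rps27 (chr3:90213599-90213898, minus strand): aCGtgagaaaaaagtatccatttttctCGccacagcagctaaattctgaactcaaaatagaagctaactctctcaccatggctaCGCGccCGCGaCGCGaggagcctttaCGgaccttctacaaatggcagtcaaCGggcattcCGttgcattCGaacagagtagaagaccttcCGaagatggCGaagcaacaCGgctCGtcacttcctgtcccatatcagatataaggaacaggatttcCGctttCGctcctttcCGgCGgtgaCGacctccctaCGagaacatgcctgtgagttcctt
Bmp15 (chrX:6320675-6320974, minus strand): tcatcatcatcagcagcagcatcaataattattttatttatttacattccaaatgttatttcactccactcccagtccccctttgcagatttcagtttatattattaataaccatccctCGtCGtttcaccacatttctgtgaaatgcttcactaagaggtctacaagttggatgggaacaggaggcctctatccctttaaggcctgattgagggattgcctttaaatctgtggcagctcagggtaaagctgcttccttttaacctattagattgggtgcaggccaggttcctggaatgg
Pramel7 (chr2:87492369-87492668, minus strand): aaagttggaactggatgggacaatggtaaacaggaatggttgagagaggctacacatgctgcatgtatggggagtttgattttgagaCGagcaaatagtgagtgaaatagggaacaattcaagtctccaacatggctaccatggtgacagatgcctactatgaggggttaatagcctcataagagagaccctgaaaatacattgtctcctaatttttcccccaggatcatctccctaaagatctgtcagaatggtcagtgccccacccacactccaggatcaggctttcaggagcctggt

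Short words were searched on both strands. They were CACGTG (the E-box of Myc and of the lysosomal factor TFEB), the word of the CCAAT box, the GC box word GGGCGG bound by Sp1 and the word TATAAA of the TATA box. A palindrome bound by the factor NRF1 was searched too. CACGTG was found in 12.1% of promoters of genes that rose, 10.5% of those that fell, 9.95% of all tested genes and 7.15% of the whole table. For CCAAT the shares were 36.4%, 39.3%, 39.7% and 37.4%, for GGGCGG 63.2%, 63.1%, 64.4% and 35.7%, and for TATAAA 7.39%, 7.57%, 8.35% and 13.6%. The NRF1 palindrome was found in 1.78%, 1.93%, 1.96% and 0.971%. By family, CACGTG was found in 9 of 29 promoters of the lysosomal list (31%) and 12 of 55 of the rRNA processing list (21.8%), values read off after all lists had been searched. Between these shares lay the lists of Polycomb genes (4 of 14, 28.6%), aminoacyl-tRNA synthetases (5 of 18, 27.8%), histones and their chaperones (6 of 25, 24%) and the small RNA pathway (3 of 13, 23.1%). The sperm and testis list had the word in 1 of 2 promoters. In the lysosomal list it was in 2 of the 10 promoters of genes that rose (cathepsin D, Ctsd, and the glucosidase gene Gaa) and in 1 of the 2 of genes that fell (the calcium channel gene Mcoln1). Ctsd, Gaa and Mcoln1 are named here after their values were seen (1.57, 2.17 and at least 3.68-fold lower). A stretch around the word, in capitals, is shown for each.
Ctsd (chr7:142387908-142387937, minus strand): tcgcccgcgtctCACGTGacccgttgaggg
Gaa (chr11:119267811-119267840, plus strand): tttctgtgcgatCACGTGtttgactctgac
Mcoln1 (chr8:3500436-3500465, plus strand): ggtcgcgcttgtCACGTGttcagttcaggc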

How the data were processed

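The series holds 21 Illumina mouse bead arrays in 8 groups. The deposited non-normalized table gives, per probe and array, a signal intensity and a detection p-value, exported with GenomeStudio per the submitters' processing notes; the sources used here give no other step. The authors' deposited processed values proved to be the same intensity scaled to a common mean. Arrays carry no count or depth, so their number limits the precision.

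On the 21 arrays 33.2% to 50.2% of the deposited signals were below 0, so background had been subtracted before deposit. Intensities were further corrected with normexp (offset 50), quantile-normalised over the 21 arrays and taken as log2. The filter kept 11541 of 24613 probes, those with 2 or more arrays at a detection p under 0.01. The platform annotation gave 1 symbol for 20984 probes, several for 1 and none for 3628, and 20968 were updated through RefSeq gene identifiers. The probe with the highest mean level stood for each of 8527 genes, of which 1377 had several. Array pairs within a group with an SD of log2 differences below 0.2 were averaged, a limit chosen after the data were seen. limma 3.58.1 in R 4.3.3 was fitted to 19 samples of all groups (11 residual degrees of freedom), without covariates, and p-values were adjusted by the Benjamini-Hochberg method. "At least N-fold" sets the brighter group's mean against, per array, the lowest detected signal or the probe's own where higher. The fit was tested on simulated data.

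Genes were grouped in 69 lists and 30 pairs written by hand. Members and lists were chosen with earlier results of these data known. Named genes are those ranked 7 to 16 in size in each direction (all arrays of the brighter group detecting them, with probes of 1 sign), among the 5 largest called differences of a list (the 2 largest where fewer than 2 members were called), in a pair, or marker genes; exceptions are stated in the text. Promoters are from RefSeq (GRCm38.p6). Alternatives varied the background correction, scaling, detection filter, arrays fitted, repeat arrays, chip, replicate letter, probe choice and samples. Other groups of the series were used only for the shared spread and for the comparison of interphase zygotes with drug controls.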

Additional observations from a re-analysis of the deposited data

How the results depend on the processing

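The number of genes called between mitotic zygotes and 2-cell embryos depended on how the spread was estimated and on the scaling. With only the arrays of the groups compared, 2216 genes were higher and 2549 lower, and within chip 4 the numbers were 2233 and 2575. Without the 2 dimmest arrays of the series 1528 were higher and 1835 lower. Median scaling gave 689 and 1155, and the deposited mean-scaled values gave 1030 and 1618. With all 21 arrays taken as separate samples they were 1517 and 1638. Without mitotic sample A and C 697 were higher and 629 lower, and leaving out another sample gave 704 to 771 and 637 to 681, where 1 group is a single sample assumed to vary like the others. Between interphase zygotes and drug controls, median scaling gave 898 higher and 1270 lower, and the chip as a block 899 and 858. Without drug control sample B and C 874 were higher and 736 lower, and leaving out another sample gave 915 to 1217 and 778 to 1250. Apart from the fewer samples, the cause of these shifts was not tested. The test of the difference between the comparisons called 0 genes with limma (181 at an unadjusted p below 0.05 in the reported setting) under each alternative run for both comparisons at once, and 0 to 2 with a sample left out, 2 without interphase sample A and 1 without drug control sample A. Counts within families shrank too when a sample was left out. Of the families with 4 or more members called in a direction, the lowest such count was over 1.5 times smaller in 31 of 48 for members that rose and 37 of 43 for members that fell.

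With the replicate letter as a block, 1206 genes were higher and 1144 lower. The deviations of samples of the same letter from their group means had a correlation of 0.0434. With 2 samples in each group this value is the same for both letters by construction. It is therefore a single value and cannot settle whether the letters pair the samples. Of the named genes, 210 were run under the alternatives, and 197 of these were called in the reported setting. Among these, 25 lost the call with median scaling, 6 with mean-scaled values, 4 with the chip as a block, 1 with the replicate block and 25 to 29 without 1 sample. The chip as a block ended the calls of Ctsd, Gspt2, Rab32 and Riok1, the replicate block that of Gspt2, and mean-scaled values those of Axin2, Btg4, Cdkn1a, Fdps, Gdf9 and Gspt2. The mean of all probes made 12 called differences over 1.5 times smaller, and mean-scaled values made 34 over 1.5 times larger. Median scaling ended the calls of Axin2, Bag4, Bcl2l10, Btg4, Cdkn1a, Ctsd, Dlst, Dusp1, Fdps, Gaa, Gdf9, Gtf2i, H1f8, H2ax, Ldhb, Med30, Padi6, Pcgf5, Ppp3r1, Riok1, Tcp1, Tgfb2, Uchl1, Ybx2 and Zbed3. Axin2, Btg4, Cdkn1a, Ctsd, Elk4, Exosc5, Fdps, Gspt2, Gtf2i, Rab32, Riok1, Slc2a1, Stau2, Ybx3 and Zbed3 lost the call whichever sample was left out, and Aars, Eif4h, Fgf8, Gdf9, H2ax, Lbr, Mad2l2, Map3k6, Mapk8, Med30, Nars, Pcgf5, Piwil1, Pkm, Polr2k, Ppp3r1, Prmt1, Slc7a11, Smad1, Tcp1, Tgfb2 and Ybx2 under some of these omissions. The sign turned only in genes that were not called: Aurkb was at -0.35 with median scaling, -0.11 with mean-scaled values and -0.14 to 0.55 when 2-cell sample A or B was left out, Ybx1 at 0.26 with mean-scaled values, Zp3 at -0.27 to 0.06 when a sample was left out, and Cdc25b at 0.10 without mitotic sample A and C and at -0.23 to 0.04 with another sample left out. No result met the criteria for a closer look, as no group compared here held 4 samples and the difference between the comparisons passed its test in no gene. The detection limit of 0.05 was chosen after the data were seen, as were the promoter words without the 2-fold minimum and the list counts under each alternative. Within chip 4 could not be run for interphase zygotes and drug controls, which share no chip.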
